A study of Solanum lycopersicum with 12 samples.

Results

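The array carried 7 probes for 2 tomato genes of phenolic and aromatic amine metabolism, 4CL and AADC1A. They were 4 probes of 4CL (A_96_P073909, A_96_P087114, A_96_P189614 and A_96_P219414, all designed on NM_001346841) and 3 probes of AADC1A (A_96_P054922, A_96_P141452 and A_96_P225834, all designed on NM_001246916), that is 2 of the 33703 transcript or sequence names behind 43603 non-control probes. A_96_P073909, A_96_P087114 and A_96_P054922 were named in advance and the other 4 were added because they carry the same sequence name. The genes were chosen from results of these same arrays, with no value or threshold recorded, so every fold change of theirs is given below as a description with its standard error and without a p-value.

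4CL encodes 4-coumarate:CoA ligase, which joins coenzyme A to hydroxycinnamic acids and so supplies the activated precursors of lignin, flavonoids, soluble phenolics and hydroxycinnamic acid amides. AADC1A encodes an aromatic amino acid decarboxylase, and the tomato enzymes of this family remove carbon dioxide from phenylalanine and related amino acids to give aromatic amines, the start of the route to phenylethanol volatiles. Hydroxycinnamic acid amides, in which an activated phenolic acid and an aromatic amine are coupled, are known as cell wall-bound defence compounds of Solanaceae, so products of both kinds of enzyme meet in them.

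Whole tomato seedlings, 15 days old and kept in liquid MS medium, received the cell-free culture filtrate of Bacillus amyloliquefaciens MBI600 (MBI600 CFCF) at 1/5 of the volume, the flagellin peptide flg22 at 1 µM, which served as a positive control of immune activation, or a control treatment. The methods give that control as LB broth at 1/5 of the volume in MS, while the labels call these seedlings untreated and in water. LB is not described for flg22, so flg22 and control seedlings may have differed in medium too. The groups were MBI600 CFCF at 24 h, flg22 at 24 h, control at 24 h, MBI600 CFCF at 6 h, flg22 at 6 h and control at 6 h, with 2 arrays each, every array holding RNA pooled from 2 seedlings as an independent biological replicate. No mutant was used. Since each pool was a mixture of root and shoot tissue, fewer cells of a type and less RNA per cell cannot be told apart.

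The 12 arrays lay on 3 slides of 4 arrays, and between 69.8% and 81.7% of their spots were well above background. Replicates correlated at 0.970 to 0.993 over all probes. Photosynthesis genes, used as markers of shoot tissue (16 genes, 55 probes), had a log2 summed signal between 20.77 and 21.08 in MBI600 CFCF seedlings, between 20.64 and 21.17 in flg22 seedlings and between 20.94 and 21.19 in control seedlings at 24 h. The 6 h sums were 20.82 and 20.73 in MBI600 CFCF seedlings, 20.25 and 20.51 in flg22 seedlings, and 20.84 and 20.17 in control seedlings. Root markers (11 genes, 21 probes) summed to between 15.08 and 15.45 in all groups at 24 h, and at 6 h to 14.98 and 15.20 in MBI600 CFCF seedlings, 15.53 and 15.34 in flg22 seedlings, and 15.04 and 15.59 in control seedlings. Control replicate 2 at 6 h thus had the lowest shoot sum and the highest root sum of the 12 arrays, and the flg22 arrays at 6 h had the next lowest shoot sums. All 55 shoot probes and 16 of 21 root probes were well above background on every array, while 1 probe of the root xylosidase XYL1 was on none.

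Values below are log2 green signals after background correction and quantile normalization, on which 1 unit is a doubling. Each probe has its own brightness, so levels are compared between arrays and never between probes. A probe was called where the Benjamini-Hochberg adjusted p of limma over all 43603 probes was under 0.1 and the log2 fold change was at least 2 in size.

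AADC1A was measured highest in flg22 seedlings at 6 h, followed by MBI600 CFCF seedlings at 6 h, by all 3 probes. At 24 h A_96_P054922 read 6.05 and 6.35 in MBI600 CFCF seedlings, 6.88 and 7.30 in flg22 seedlings, and 6.27 and 6.33 in control seedlings. Both flg22 arrays stood above the other 4 at this time, while MBI600 CFCF and control overlapped. The 6 h readings were 8.25 and 8.45 in MBI600 CFCF seedlings, 9.83 and 9.68 in flg22 seedlings, and 6.96 and 8.02 in control seedlings. The 3 groups did not overlap at 6 h, although control replicate 2 lay only just under the lower MBI600 CFCF array. The raw green signal of this probe was only 41.0 and 52.0 units in MBI600 CFCF seedlings at 24 h, where 1 of 2 arrays was not well above background.

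A_96_P225834 showed the same order at 6 h with a wider control. It read 6.91 and 7.04 in MBI600 CFCF seedlings at 24 h, 8.34 and 7.97 in flg22 seedlings at 24 h, and 6.64 and 6.78 in control seedlings at 24 h, with no overlap among the 3 groups. The 6 h readings were 9.27 and 9.69 in MBI600 CFCF seedlings, 11.06 and 11.26 in flg22 seedlings, and 7.66 and 9.81 in control seedlings. Control replicate 2 here exceeded both MBI600 CFCF arrays.

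A_96_P141452 had smaller differences. It read 6.21 on both MBI600 CFCF arrays at 24 h, 6.11 and 6.49 in flg22 seedlings at 24 h, and 6.18 and 6.27 in control seedlings at 24 h, and the 3 groups overlapped. The 6 h readings were 7.02 and 7.22 in MBI600 CFCF seedlings, 7.60 and 7.54 in flg22 seedlings, and 6.30 and 6.94 in control seedlings, again in the order of the other probes and without overlap. This probe too was not well above background on 1 of 2 MBI600 CFCF arrays at 24 h, and the offset of 50 added to all signals compresses differences near background.

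**Figure D1:**
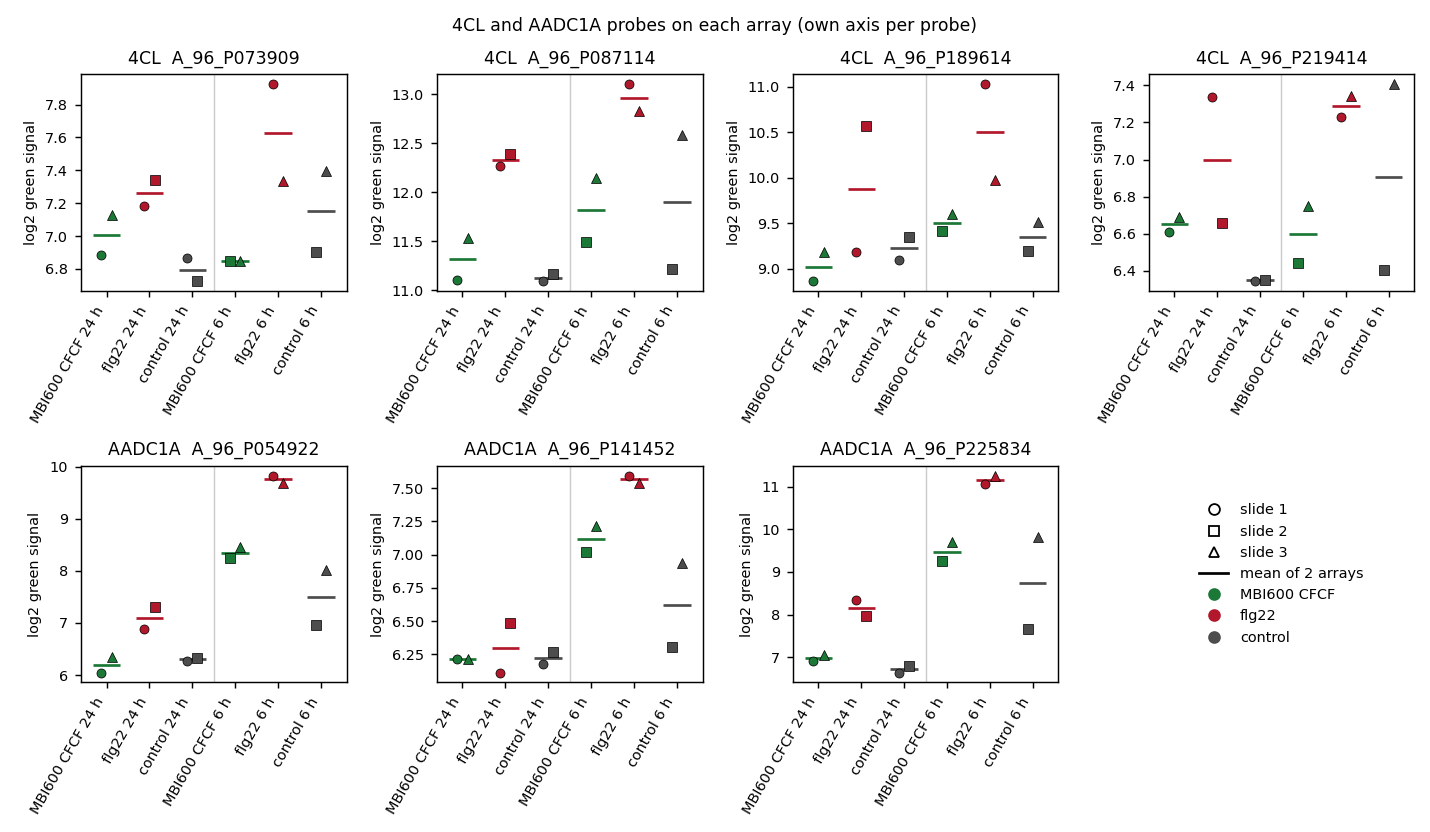
Log2 green signal (y axis, own range for each probe) of the 4 probes of 4CL (top row) and the 3 probes of AADC1A (bottom row) in each group of treatment and time (x axis); points are single arrays with the slide as their shape, and bars are means of 2 arrays. The 2 flg22 arrays at 6 h are the highest of all arrays for each AADC1A probe, and control replicate 2 at 6 h lies above control replicate 1 in all 7 panels.

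The 4CL probe A_96_P087114 read 11.10 and 11.53 in MBI600 CFCF seedlings at 24 h, 12.27 and 12.39 in flg22 seedlings at 24 h, and 11.09 and 11.16 in control seedlings at 24 h. At 6 h these were 11.50 and 12.14 in MBI600 CFCF seedlings, 13.11 and 12.83 in flg22 seedlings, and 11.21 and 12.59 in control seedlings. Both flg22 groups stood above the other groups of their time, whereas MBI600 CFCF and control overlapped at both times.

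A_96_P073909 at 24 h read 6.89 and 7.13 in MBI600 CFCF seedlings, 7.18 and 7.34 in flg22 seedlings, and 6.87 and 6.73 in control seedlings. The 6 h readings were 6.85 on both MBI600 CFCF arrays, 7.92 and 7.33 in flg22 seedlings, and 6.91 and 7.39 in control seedlings. Here MBI600 CFCF lay above both control arrays at 24 h and below both at 6 h, with the nearest arrays at 6.89 (MBI600 CFCF) and 6.87 (control) at 24 h and at 6.85 (MBI600 CFCF) and 6.91 (control) at 6 h.

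The remaining 4CL probes spread more between replicates. A_96_P189614 read 8.86 and 9.18 in MBI600 CFCF seedlings at 24 h, 9.18 and 10.57 in flg22 seedlings at 24 h, and 9.10 and 9.35 in control seedlings at 24 h, so that a single flg22 array stood clear of the others. Its 6 h values were 9.42 and 9.60 in MBI600 CFCF seedlings, 11.03 and 9.98 in flg22 seedlings, and 9.19 and 9.51 in control seedlings, with both flg22 arrays above the rest. A_96_P219414 ranged between 6.34 and 7.41 over all 12 arrays, and its highest value was control replicate 2 at 6 h.

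Ordered by group mean, flg22 at 6 h came first for all 7 probes. For A_96_P054922 the order below it was MBI600 CFCF at 6 h, control at 6 h, flg22 at 24 h, control at 24 h and MBI600 CFCF at 24 h, and the neighbours control at 6 h and flg22 at 24 h, as well as the last 2 groups, overlapped. For A_96_P087114 the order was flg22 at 6 h, flg22 at 24 h, control at 6 h, MBI600 CFCF at 6 h, MBI600 CFCF at 24 h and control at 24 h, and every neighbouring pair overlapped except the first. Over the 12 arrays the AADC1A probes correlated with each other at Pearson's r of 0.943 to 0.978 (3 pairs), the 4CL probes at 0.394 to 0.861 (6 pairs), and probes of the different genes at 0.508 to 0.860 (12 pairs). These values describe probes that share every array, and the lowest was that of A_96_P189614 with A_96_P219414. No position of a probe along its transcript was analysed here.

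In flg22 seedlings at 6 h against control at 6 h, all 7 probes were higher, with a median log2 fold change of 1.07. For AADC1A the values were 2.26 (SE 0.31) for A_96_P054922, 2.43 (SE 0.56) for A_96_P225834 and 0.95 (SE 0.21) for A_96_P141452. For 4CL they were 1.15 (SE 0.46) for A_96_P189614, 1.07 (SE 0.41) for A_96_P087114, 0.48 (SE 0.22) for A_96_P073909 and 0.38 (SE 0.32) for A_96_P219414. A_96_P054922 and A_96_P225834 of AADC1A had the highest values of the 7, while A_96_P141452 lay within the range of 4CL. A_96_P054922 was the only one of the 7 probes past both cut-offs, where 0.19% of all probes were called. With slide as a term it had 2.25 and was not called, nor was it in log2 ratios of the green to the red channel (2.34) or with only the compared arrays in the fit (2.26). Both flg22 arrays lay above both control arrays for 5 of 7 probes, against 13.7% of all probes. Because the genes were picked with this comparison known, nothing is read from these counts.

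The size at 6 h depended on which control array was used. For all 7 probes control replicate 2 was the higher, by 0.32 to 1.38 for 4CL and 0.63 to 2.16 for AADC1A. The median gap over all probes was -0.00, but quantile normalization keeps that median near 0, so it is no yardstick. Between 0.21% (A_96_P225834) and 37.0% (A_96_P189614) of all probes had a larger gap in size between the same arrays. The standard deviation of these 2 control arrays was 1.53 for A_96_P225834 and 0.75 for A_96_P054922, against at most 0.30 in the other groups. The SE pools all 6 groups and so does not show this wider spread. Without control replicate 2 the flg22 value was 2.79 for A_96_P054922 and 3.51 for A_96_P225834. Without control replicate 1 it was 1.73 for A_96_P054922 and 1.35 for A_96_P225834, and no probe was called, as was also so without either flg22 array. On slide 3, which held flg22 replicate 2 and control replicate 2 together, the difference was 1.66 for A_96_P054922, 1.45 for A_96_P225834 and 0.60 for A_96_P141452. On that slide the 4CL probes differed by 0.47 (A_96_P189614), 0.24 (A_96_P087114) and -0.06 (both A_96_P073909 and A_96_P219414). Control replicate 2 at 6 h was the array with the lowest shoot and highest root marker sum, and the part of tissue content in these differences was not tested.

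At 24 h the flg22 values were again above 0 for all 7 probes, with a median of 0.65. A_96_P225834 was at 1.45 (SE 0.56), A_96_P087114 at 1.20 (SE 0.41), A_96_P054922 at 0.78 (SE 0.31), A_96_P219414 at 0.65 (SE 0.32), A_96_P189614 at 0.65 (SE 0.46), A_96_P073909 at 0.46 (SE 0.22) and A_96_P141452 at 0.08 (SE 0.21). With the scanner's processed signal A_96_P225834 had 2.31, A_96_P054922 1.95 and A_96_P219414 1.65. None of the 7 was called, with 0.00229% of all probes called, and both flg22 arrays exceeded both control arrays for 5 of 7 probes, against 14.3% of all probes. A_96_P087114 differed by 1.18 on slide 1 and 1.23 on slide 2, the closest match between slides among the 7, and A_96_P225834 by 1.70 and 1.19. For A_96_P189614 the slides gave 0.09 and 1.21, and leaving out flg22 replicate 2 brought its value to -0.04.

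**Figure D2:**
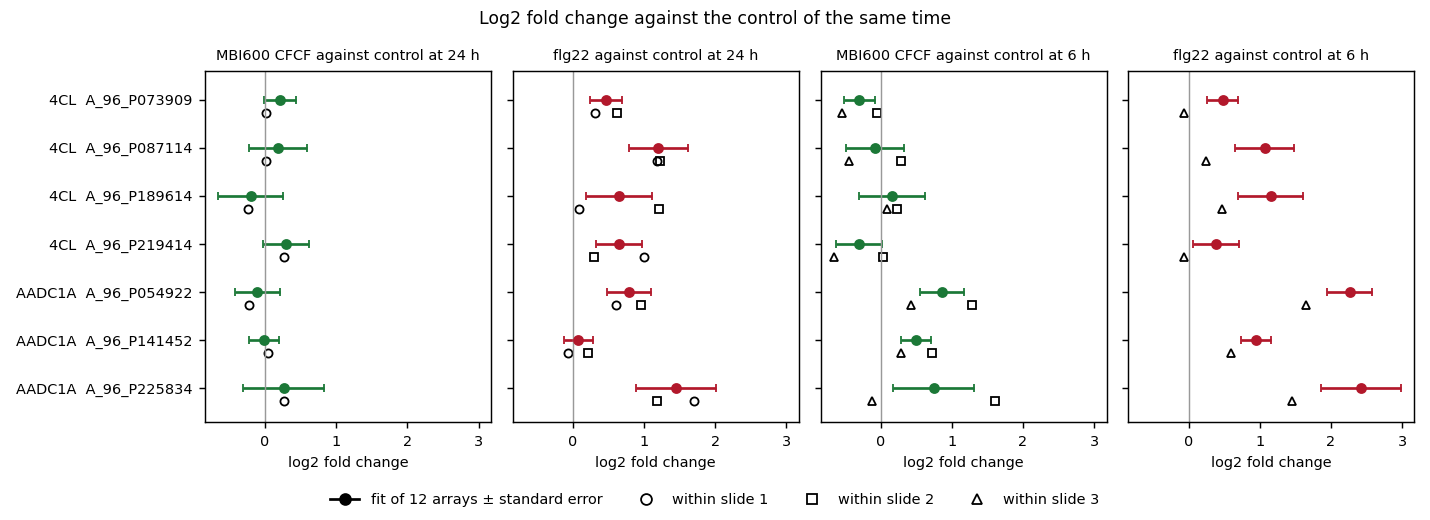
Log2 fold change (x axis) of each of the 7 probes (y axis) in MBI600 CFCF or flg22 seedlings against control seedlings of the same time; filled points are the fit of 12 arrays with their standard error, and open symbols are single differences within a slide. AADC1A probes in flg22 seedlings at 6 h reach 0.95 to 2.43 in the fit, and the slide 3 values lie below the fit for all 7 probes.

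MBI600 CFCF gave smaller values than flg22. At 6 h against control the AADC1A probes were at 0.86 (SE 0.31, A_96_P054922), 0.74 (SE 0.56, A_96_P225834) and 0.50 (SE 0.21, A_96_P141452), while the 4CL probes lay on both sides of 0, between -0.31 and 0.16. None of the 7 was called and 0% of all probes were. Both MBI600 CFCF arrays were above both control arrays for 2 of 7 probes, A_96_P054922 and A_96_P141452, against 13.9% of all probes. Within slide 2 the difference was 1.29 for A_96_P054922, 1.61 for A_96_P225834 and 0.72 for A_96_P141452, and within slide 3, which held control replicate 2, it was 0.43, -0.12 and 0.28 for the same probes. The value of A_96_P225834 was 1.82 without control replicate 2 and -0.34 without control replicate 1, and that of A_96_P087114 was 0.61 and -0.77, so the sign of both turned on 1 control array.

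Against control at 24 h the MBI600 CFCF values were -0.11 (SE 0.31), 0.26 (SE 0.56) and -0.01 (SE 0.21) for the AADC1A probes A_96_P054922, A_96_P225834 and A_96_P141452, and between -0.20 and 0.30 for 4CL. No member probe was called, against 0.00459% of all probes, and both MBI600 CFCF arrays lay above both control arrays for 3 of 7 probes, against 24.2% of all probes. The values of A_96_P054922 and A_96_P141452 were 0.94 and 0.40 in log2 ratios of the green to the red channel, a different measure. With the 75th percentile as scale they were 0.59 and 0.69, where the median of all probes was 0.46. With the scanner's processed signal A_96_P054922 was at -0.22.

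Set directly against flg22, MBI600 CFCF seedlings were lower at 6 h for all 7 probes and without overlap, against 15.9% of all probes. The log2 differences were -1.40 (SE 0.31) for A_96_P054922, -1.68 (SE 0.56) for A_96_P225834 and -0.45 (SE 0.21) for A_96_P141452, and between -1.15 and -0.69 for 4CL. None of the 7 passed both cut-offs, with 0.103% of all probes called. Within slide 3 all 7 differences were again below 0, between -1.57 and -0.32. The difference itself uses no control array, whereas the comparisons with control share the 2 control arrays of their time.

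The MBI600 CFCF minus flg22 differences at 24 h were -0.89 for A_96_P054922, -1.18 for A_96_P225834 and -1.01 for A_96_P087114, with the other 4 between -0.85 and -0.09. The AADC1A sizes depended on the signal used, being -2.17 for A_96_P054922 and -1.78 for A_96_P225834 with the scanner's processed signal. In log2 ratios of the green to the red channel they were -0.37 and -0.61. Both MBI600 CFCF arrays were below both flg22 arrays for 4 of 7 probes, against 16.3% of all probes, and none was called, with 0.00688% of all probes called. The smallest, -0.09 for A_96_P141452, was 0.03 in log2 ratios of the green to the red channel and 0.28 with the 75th percentile as scale. In the latter setting the median of all probes was 0.30.

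With quantile normalization, the AADC1A probes differed more between times than the 4CL probes did in MBI600 CFCF and flg22 seedlings. In flg22 seedlings the 24 h minus 6 h differences were -2.67 (SE 0.31) for A_96_P054922, -3.00 (SE 0.56) for A_96_P225834 and -1.27 (SE 0.21) for A_96_P141452, against -0.64 to -0.29 for the 4CL probes. A_96_P054922 was called, 1 of 7 probes where 0.11% of all probes were, and 4 of 7 were lower at 24 h without overlap, against 14% of all probes. The call of A_96_P054922 was lost without either 24 h array, without replicate 1 at 6 h and with only the compared arrays in the fit, and in log2 ratios of the green to the red channel A_96_P225834 was called in its place. In MBI600 CFCF seedlings the AADC1A differences were -2.16, -2.51 and -0.91 for the same probes in that order, and the 4CL differences lay between -0.50 and 0.16. The size of the AADC1A differences is not settled. Over the alternative settings it ran between -3.91 and -1.45 for A_96_P054922 and between -2.26 and -0.19 for A_96_P141452. These 2 probes were each not well above background on 1 of the 2 arrays at 24 h. A_96_P225834, well above background on every array, ran between -3.29 and -2.15. With the 75th percentile as scale the median of all probes was 0.58 here. The cause of these ranges was not tested. None of the 7 was called, with 0.0115% of all probes called, and 4 of 7 were lower without overlap, against 26.1% of all probes.

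Control seedlings had 24 h minus 6 h differences below 0 as well, in which AADC1A did not stand apart from 4CL by all 3 probes. They were -1.19 for A_96_P054922, -2.02 for A_96_P225834 and -0.40 for A_96_P141452, with 4CL between -0.77 and -0.12. None of the 7 was called and 0% of all probes were, while 6 of 7 were lower at 24 h without overlap, against 16.5% of all probes. Leaving out control replicate 2 at 6 h brought A_96_P225834 to -0.94 and A_96_P054922 to -0.66, and leaving out control replicate 1 brought them to -3.10 and -1.72. For A_96_P087114 of 4CL the same steps gave -0.08 and -1.46. Within slide 2 the values were -0.87 for A_96_P225834 and -0.63 for A_96_P054922, against -0.18 for A_96_P073909, between -0.05 and -0.03 for A_96_P087114, A_96_P219414 and A_96_P141452, and 0.16 for A_96_P189614.

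The flg22 effect at 24 h minus that at 6 h was -1.48 (SE 0.44) for A_96_P054922, -0.87 (SE 0.29) for A_96_P141452 and -0.98 (SE 0.80) for A_96_P225834, and between -0.50 and 0.27 for 4CL. For MBI600 CFCF it was -0.96, -0.51 and -0.48 for the same AADC1A probes, and between -0.36 and 0.61 for 4CL. No member probe was called in either, with 0.00229% of all probes called for flg22 and 0% for MBI600 CFCF. These differences contain the 6 h control arrays. With single arrays left out, that of A_96_P225834 ranged between -1.56 and 0.60 for MBI600 CFCF and between -2.06 and 0.10 for flg22. For MBI600 CFCF the value of A_96_P054922 was 0.20 in log2 ratios of the green to the red channel. That of A_96_P141452 was 0.41 with the 75th percentile as scale. The median of all probes was 0.73 in that setting, so the probe still lay below it.

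**Figure D3:**
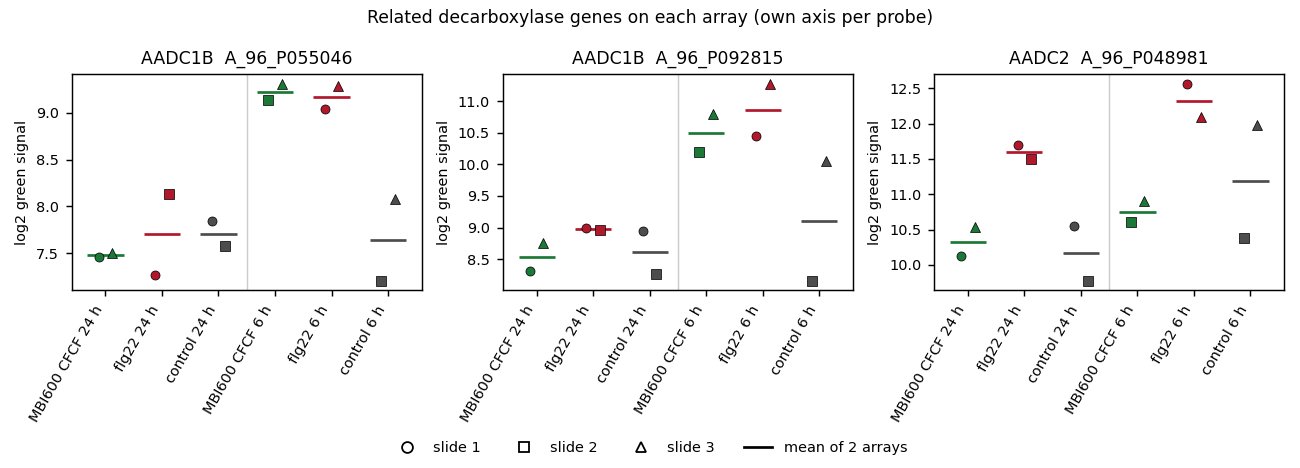
Log2 green signal (y axis, own range for each probe) of the related decarboxylase genes AADC1B (2 probes) and AADC2 (1 probe) in each group of treatment and time (x axis); points are single arrays with the slide as their shape, and bars are means of 2 arrays. A_96_P055046 of AADC1B reaches 9.14 and 9.31 in MBI600 CFCF seedlings and 9.04 and 9.29 in flg22 seedlings at 6 h.

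AADC1B and AADC2, close relatives of AADC1A, were on the array. AADC1B lies on the same chromosome as AADC1A with 5 annotated genes between them, 4 of them protein-coding, and whether probes of one also bind transcripts of the other was not tested. Its probe A_96_P055046 read 9.14 and 9.31 in MBI600 CFCF seedlings at 6 h, 9.04 and 9.29 in flg22 seedlings at 6 h, and 7.21 and 8.08 in control seedlings at 6 h. Both treatments lay above control, at 1.58 (SE 0.33, limma adjusted p = 0.949) for MBI600 CFCF and 1.52 (adjusted p = 0.224) for flg22, and neither passed the test. The MBI600 CFCF minus flg22 difference at 6 h was 0.06 for this probe and -0.36 for A_96_P092815. The 7 probes of 4CL and AADC1A lay between -1.68 and -0.45. Within slide 3 the differences were 0.02 for A_96_P055046, -0.47 for A_96_P092815 and -1.57 to -0.32 for the 7 probes. A_96_P092815 thus did not stand apart from them there. Over time A_96_P055046 differed by -1.75 in MBI600 CFCF seedlings (adjusted p = 0.210), -1.46 in flg22 seedlings (adjusted p = 0.221) and 0.06 in control seedlings (adjusted p = 0.984), 24 h minus 6 h, none of which passed the test.

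AADC2, another decarboxylase of the family, was highest in flg22 seedlings at both times. Its probe A_96_P048981 read 10.13 and 10.53 in MBI600 CFCF seedlings at 24 h, 11.69 and 11.50 in flg22 seedlings at 24 h, and 10.55 and 9.78 in control seedlings at 24 h. The 6 h readings were 10.61 and 10.90 in MBI600 CFCF seedlings at 6 h, 12.56 and 12.09 in flg22 seedlings at 6 h, and 10.38 and 11.98 in control seedlings at 6 h. The flg22 value at 24 h was 1.43 (SE 0.48, limma adjusted p = 0.656), and the MBI600 CFCF minus flg22 difference at 6 h was -1.57 (adjusted p = 0.596), so that neither passed the test. For this gene too control replicate 2 at 6 h was the higher control array.

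Upstream of 4CL, phenylalanine ammonia-lyase opens the phenylpropanoid pathway, and PAL2, PAL3 and PAL5 had 12 probes. All 12 were higher in flg22 seedlings than in control at 24 h, by 0.41 to 1.11 (median 0.91), and at 6 h, by 0.43 to 0.92 (median 0.77), and both flg22 arrays lay above both control arrays for 9 of them at 24 h and 11 at 6 h, where 14.3% and 13.7% of all probes did. In MBI600 CFCF seedlings 12 of 12 were above 0 at 24 h (median 0.43) and 11 of 12 at 6 h (median 0.53). None passed the test, the lowest limma adjusted p against control being 0.647 for flg22 and 0.728 for MBI600 CFCF. These genes belong to a list chosen with earlier results known, and their probes share genes, so nothing is read from the counts. Of 32 entries in the list of phenylpropanoid entry and lignin genes, only 7 were matched to probes, 4CL among them. Its other matched genes had 18 probes. The largest values among these 18 were 1.11 (A_96_P074934, PAL3) in flg22 seedlings at 24 h and 0.92 (A_96_P222249, PAL3) at 6 h. In MBI600 CFCF seedlings they were 0.83 (A_96_P206764, PAL5) at 24 h and 0.90 (A_96_P176549, PAL3) at 6 h.

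Among 11 probes of 7 further genes of aromatic amines and their amides, 9 were above 0 in flg22 seedlings at 6 h with a median of 0.66. In MBI600 CFCF seedlings at 6 h it was 10, with a median of 0.52. The all-probe medians were -0.02 and 0.00, which quantile normalization keeps near 0. The largest flg22 value at 6 h was 1.75 for A_96_P092815 of AADC1B. At 24 h 6 of 11 were above 0 in flg22 seedlings and 2 of 11 in MBI600 CFCF seedlings, where the largest in size was -0.83 for A_96_P229424 of THT7-1, a tyramine hydroxycinnamoyltransferase that couples amines to the activated acids made by 4CL. No probe of these genes passed the adjusted p alone in any comparison.

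**Figure D4:**
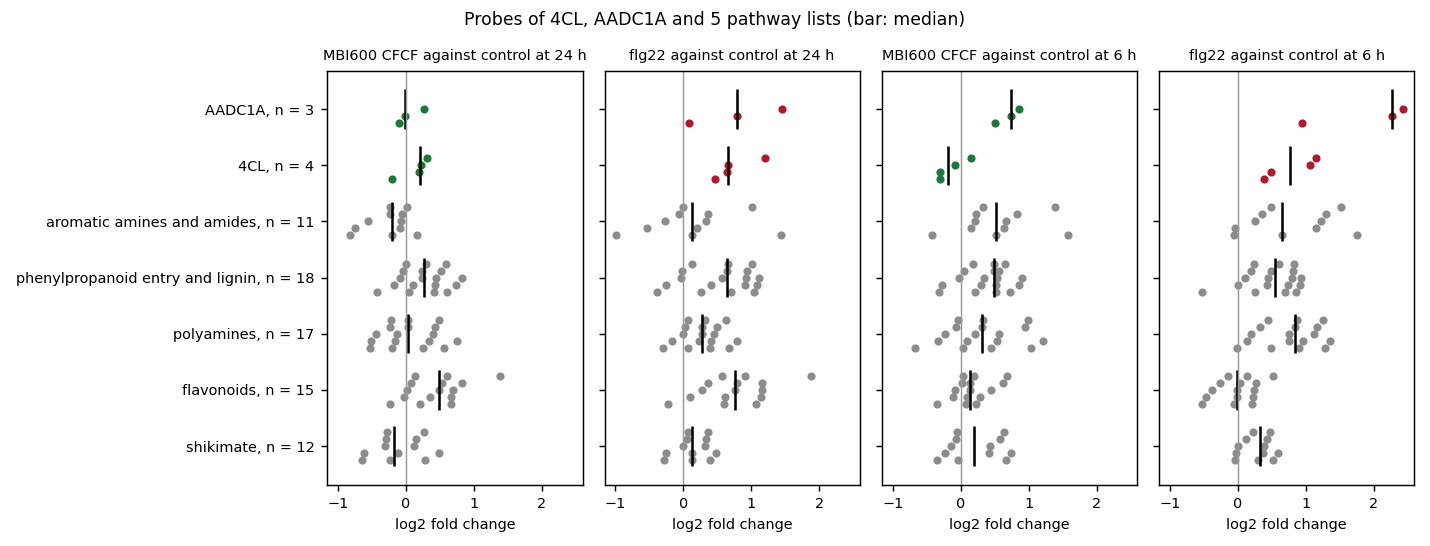
Log2 fold change against the control of the same time (x axis) of each probe of AADC1A, 4CL and 5 lists of related pathway genes (y axis, with the number of probes); a vertical bar is the median of its row. In flg22 seedlings at 6 h the AADC1A probes lie between 0.95 and 2.43 (median 2.26). The median is 0.66 for the other aromatic amine genes and 0.54 for the other phenylpropanoid genes. Among the former, A_96_P092815 of AADC1B has 1.75. AADC1A was chosen with results of these arrays known, so nothing is read from its place above the lists.

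The probes whose levels over the 12 arrays were most like those of 4CL and AADC1A were mostly without a gene name. Among 28589 to 28592 candidate probes well above background on all arrays, 94 correlated above 0.9 with A_96_P087114, 4 with A_96_P073909 and 80 with A_96_P054922. Of the 3 most alike for each of these probes only 1 had a name, cevi16, a peroxidase gene, whose probe A_96_P199904 correlated with A_96_P073909 at 0.92. The compared probes share every array, slide and tissue pool, and likeness says nothing about a shared function.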

How the data were processed

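Tomato 4 x 44K arrays were hybridized with RNA of 12 seedling pools. Per the file headers, spots were read with Agilent Feature Extraction 10.7.3.1. The scanner files hold the authors' green and red intensity values, of which green was used. No source used here states what the red channel holds. The deposited log2 values, which the authors made with limma (normexp background correction with an offset of 50, then quantile normalization), were recomputed from median signals to within 5e-09. In the main setting spots marked as outliers were dropped (1 to 5 an array), leaving 5 missing values, replicate spots were averaged, and 43603 probes were fitted in limma 3.58.1 (R 4.3.3) with 6 group means over all 12 arrays and 11 contrasts, p-values being adjusted by Benjamini-Hochberg. The methods give an adjusted p of 0.1 or a log2 fold change of 2 as cut-offs. Both together were used here, and each alone was tried. Arrays were grouped by their labels. A p-value judges a group difference only against the spread between these arrays, pooled over the 6 groups. In limma the spread of each probe is also drawn toward a value estimated from all probes. Arrays give no read depth, and 2 arrays a group limit the precision. Signals were not well above background on 1 array each for A_96_P054922 and A_96_P141452, and no member spot was saturated. The 4CL probes A_96_P073909 and A_96_P219414 were dim as well, though well above background on every array.

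Probes were named through a RefSeq gene table of assembly SLM_r2.1 by accession, which named 4884 probes of 2232 genes. The 5 pathway lists and the shoot and root marker lists were matched by symbol, and a list gene was named where its probe had the largest change of its list against control. Genes with probes were found for 7 of 32 phenylpropanoid, 10 of 16 flavonoid and 8 of 14 aromatic amine entries. For polyamines it was 5 of 14 and for shikimate 4 of 18. The lists thus cover only a part of each pathway. For each of the 3 probes named at the start, the 3 most correlated probes of other sequences were looked up. The members and lists were chosen with earlier results of these data known. Alternatives covered offset, background, scaling, the red channel, outlier and dim spots, slide, replicate block, the arrays fitted and each array left out. The fitting code was run on simulated data with normal noise, equal spread in all groups and no slide effect. That setting differs from these arrays, so it does not show how the test behaves on them.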

Additional observations from a re-analysis of the deposited data

Results flagged for a closer look

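The 4CL probe A_96_P073909 lay on opposite sides of control at the 2 times under MBI600 CFCF. At 24 h it read 6.89 and 7.13 in MBI600 CFCF seedlings, against 6.87 and 6.73 in control seedlings, and at 6 h it read 6.85 on both MBI600 CFCF arrays, against 6.91 and 7.39 in control seedlings. The effect at 24 h minus that at 6 h was 0.51 on the log2 scale, and the difference was not tested because the gene was chosen with results of these arrays known. A_96_P219414 had a difference of 0.61 in the same direction, with overlapping groups at 6 h, and A_96_P189614 one of -0.36.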

How the results depend on the processing

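Of the 7 probes, 1 was called for flg22 against control at 6 h, with 0.19% of all probes called. In flg22 seedlings 1 was called for 24 h against 6 h, with 0.11% of all probes called. The other 9 comparisons had 0. For flg22 against control at 6 h the count was 0 in log2 ratios of the green to the red channel, with only the arrays compared and with slide as a term, 2 with trended and robust eBayes and with the fold change cut-off alone, and 0 to 2 with single arrays left out (0 without either flg22 array or control replicate 1, 2 without control replicate 2). For 24 h against 6 h in flg22 seedlings it was 2 with an offset of 16, the 75th percentile as scale, the scanner's processed signal, the filter on dim probes, trended and robust eBayes or either cut-off alone, 0 with only the arrays compared, 1 in log2 ratios of the green to the red channel but with A_96_P225834 in place of A_96_P054922, and 0 to 1 with arrays left out (0 without either 24 h array or replicate 1 at 6 h). In MBI600 CFCF seedlings over time it was 1 with an offset of 16, the processed signal or trended and robust eBayes, 2 with the fold change cut-off alone, and 0 to 2 with arrays left out (2 without replicate 1 at 6 h). In control seedlings over time it was 1 with the fold change cut-off alone and 0 to 1 with arrays left out (1 without replicate 1 at 6 h). The other 7 comparisons kept 0 under every alternative run. The share of all probes called under each alternative is not given beside these counts, so nothing about the members is read from them.

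Of 1365 alternative values of the 77 fold changes, 227 moved by more than the spread between replicates (40 of 77 with the scanner's processed signal), and 69 had the opposite sign, none of them where the fold change exceeded 1 in size. The 75th percentile moved the median of all probes by up to 0.73, and relative to it the flg22 values at 6 h were 2.34 for A_96_P054922 and 2.55 for A_96_P225834. Array deviations of the same replicate number correlated between -0.51 and 0.66 over 15 pairs of groups, above 0.1 in 9 and below -0.1 in 6. The highest was that of flg22 with control at 24 h, whose replicates lay on the same slides. Since the 2 replicates of every group lay on different slides, a pairing by replicate number cannot be decided from these values. With the replicate block the flg22 value at 6 h was 2.26 for A_96_P054922, the count of called probes was 1, and the counts of the other comparisons did not change. The causes of these changes were not tested. With 2 arrays a group and signals of AADC1A near background at 24 h, small differences there are not resolved.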

Other observations

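Genes of branches that start from the same precursors were also measured. Of 15 flavonoid probes from 10 genes, 14 were above 0 in flg22 seedlings at 24 h (median 0.76) and 13 in MBI600 CFCF seedlings at 24 h (median 0.48), while at 6 h 12 of 15 were above 0 in MBI600 CFCF seedlings (median 0.13) and 7 of 15 in flg22 seedlings (median -0.01). The largest values were those of A_96_P063931 of CHS1, which encodes chalcone synthase, the first enzyme of the flavonoid branch. It read 12.07 and 10.50 in MBI600 CFCF seedlings at 24 h, 12.16 and 11.41 in flg22 seedlings at 24 h, and 9.64 and 10.17 in control seedlings at 24 h, that is 1.38 (limma adjusted p = 0.728) for MBI600 CFCF and 1.88 (adjusted p = 0.712) for flg22. At 6 h the largest were 0.68 for A_96_P214559 in MBI600 CFCF seedlings and -0.54 for A_96_P058971 in flg22 seedlings, both of CHS2.

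Polyamine genes, whose products can replace aromatic amines in the amides, had 17 probes from 5 genes. In flg22 seedlings at 6 h 16 of 17 were above 0 (median 0.83), and A_96_P135597 of SAMDC, an S-adenosylmethionine decarboxylase, had 1.36 in flg22 seedlings and 1.21 in MBI600 CFCF seedlings. At 24 h the largest were those of arginine decarboxylase, with 0.78 (A_96_P072899, adc1) in flg22 seedlings and 0.74 (A_96_P175984, ADC) in MBI600 CFCF seedlings. The 12 shikimate probes from 4 genes ranged from -0.64 to 0.74 against control in all 4 comparisons, the ends being A_96_P091029 and A_96_P091034 of chorismate synthase CS1. No probe of the 5 lists (73 probes of 32 genes, 4CL and AADC1A left out) passed the limma adjusted p against control, where the lowest was 0.215. An unadjusted limma p under 0.05 was reached by 14 of 73 in flg22 seedlings at 24 h (6.07% of all probes) and 12 at 6 h (4.85% of all probes). In MBI600 CFCF seedlings it was reached by 2 at 24 h (6.19% of all probes) and 4 at 6 h (2.56% of all probes). The lists were chosen with earlier results of these data known, and several probes share a gene, so nothing is read from these counts.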
